A study of Mus musculus with 9 samples.

Results

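The 10 genes studied encode regulators of mitochondrial biogenesis and were followed across parietal cells and 2 populations of Mist1+ cells of the mouse stomach. The genes were the coactivators Ppargc1a and Ppargc1b, the nuclear receptors Esrra, Esrrb, Esrrg and Ppara, the transcription factors Nrf1 and Gabpa, and the mitochondrial factors Tfam and Tfb2m. Their members were all probe sets that the array's annotation pairs with exactly 1 gene, that gene being one of these 10. There were 26 such probe sets among the 45037 in the table, for 10 of 18193 genes. A probe set is a group of short probes against 1 transcript, and its signal is given here on the log2 scale, a scale on which each unit is a 2-fold step. The rule uses names and no signal. The 10 genes themselves were chosen with earlier results of these data known. Counts of them set beside the shares of all probe sets are therefore descriptions.

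The study measured total RNA of C57BL/6 mouse stomach on 9 Affymetrix arrays, 3 per group. The Parietal group held gastric parietal cells, the sources used here giving no method of collection. The Isthmus group held corpus cells labelled Mist1+ Tomato+ from stomachs in which Lgr5+ cells had been ablated. The Chief group held corpus cells labelled Mist1+ Tomato+ with no ablation named. Tomato is a red fluorescent reporter, and these cells were sorted by flow cytometry. The sources used here leave out whether the sort read Mist1 itself or the reporter alone, how the ablation was driven, and the age and number of the animals. The labels do not say that the 3 samples of a group came from separate animals, so the p-values speak for the spread among these arrays, part of which may be technical.

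Parietal cells secrete acid with an ATP-driven proton pump and are packed with mitochondria. New mitochondria need proteins from nuclear and mitochondrial DNA. The PGC-1 coactivators bind no DNA themselves but raise transcription through factors such as the estrogen-related receptors (ERR), PPAR alpha, NRF1 and GABP. These switch on genes of the respiratory chain and fatty acid oxidation, and also Tfam and Tfb2m, whose proteins package and transcribe mitochondrial DNA. Because bulk samples were measured, fewer cells of a type and less RNA per cell cannot be told apart in any of the differences below.

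The array medians lay between 5.80 and 6.70 log2, and 24 of the 26 probe sets, those exceeding that median on 3 or more arrays, were tested. Of 8 parietal cell markers, 6 were higher on the Parietal arrays than in either other group, and Slc26a7, a chloride and bicarbonate exchanger, had 11.68 to 12.06 log2 there, 4.76 to 5.02 on Isthmus and 5.31 to 6.32 on Chief arrays. Slc26a7 was tested only through its Parietal arrays, so its place among the 6 is a description. Slc9a4 averaged 7.43 log2 in Parietal, 7.88 in Isthmus and 8.95 in Chief, and Car2 13.94, 13.74 and 13.91. Neither was called. Parietal transcripts were also bright on the Mist1+ arrays. The summed signal of the 8 markers was 74500 to 85700 on Parietal, 25200 to 38800 on Isthmus and 33400 to 45000 on Chief arrays, and Atp4a, a subunit of the proton pump, had 14.03 to 14.32, 12.09 to 13.21 and 12.63 to 13.75 log2 in that order of groups. The part of these transcripts in the results below was not tested. Bhlha15, the gene of Mist1, was at 5.03, 1.34 and 7.36 log2 on the Isthmus arrays and at 10.75, 10.05 and 9.20 on the Chief arrays, although both groups carry the Mist1+ label. The enteroendocrine list had a summed signal of 429 to 657 on Parietal, 18800 to 42500 on Isthmus and 40700 to 78500 on Chief arrays. Other transcripts were bright on the Parietal arrays too. The surface pit list summed to 52200 to 59100 on Parietal, 67400 to 80500 on Isthmus and 104000 to 129000 on Chief arrays. For the chief cell list the sums were 24700 to 32900, 30800 to 41000 and 82000 to 108000. Their part in the results below was not tested. Parietal replicate 1 and Chief replicate 3 stood apart from the other arrays. Xist was 13.13 log2 on Parietal replicate 1 and 11.72 on Chief replicate 3, against 4.46 to 5.93 on the other 7, and Chief replicate 3 had Col1a1, a collagen gene of fibroblasts, at 12.48. Results are therefore also given without these 2 arrays where that matters.

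By at least 1 probe set each, Ppargc1a, Ppargc1b, Esrrg and Ppara were higher in parietal cells than in both Mist1+ groups, and Tfb2m was higher than in Chief. Esrrb was above the array medians on the Parietal arrays alone. Nrf1 had 1 probe set that was lower than in both, and Esrra, Gabpa and Tfam passed no test. Against Chief, 11 of the 24 tested probe sets were higher and 1 was lower at an adjusted p under 0.05 in limma, from 6 genes and 1 gene. Among all 25662 probe sets tested, 7.59% were called higher and 10.6% lower in that comparison. Against Isthmus, 9 were higher and 1 was lower, beside 9.03% and 11.2% of all probe sets. Of these, Esrrb 1436926_at and Ppara 1457721_at entered the test only through the Parietal arrays and so had to differ, and the counts that hold them are a description. Among the 13 probe sets, of 8 genes, that were above the array median on all 9 arrays, 7 were higher and 1 lower against Chief, beside 10.4% and 10.2% of the 14747 probe sets that met the same limit. On the same 13, 6 were higher and 1 lower against Isthmus, beside 11.6% and 11.2%. The median difference of the 24 was 1.76 log2 against Chief and 1.42 against Isthmus, where the medians over all probe sets tested were -0.173 and -0.10. The groups did not overlap for 13 higher and 1 lower probe set against Chief, beside 15.3% and 20.2% of all, and for 11 and 2 against Isthmus, beside 17.7% and 20.8%. Esrrg 1457896_at, which was not called, also reached the filter only with its Parietal arrays. It is in both medians and in the 11 against Isthmus, so these too are descriptions. Without Parietal replicate 1 and Chief replicate 3, 7 probe sets were called against Chief and 7 against Isthmus, all higher. Leaving out Parietal replicate 1 alone gave 7 and 5, and against Isthmus leaving out Parietal replicate 2, Parietal replicate 3 or Isthmus replicate 3 gave 6 each. Both comparisons use the same Parietal arrays.

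**Figure D1:**
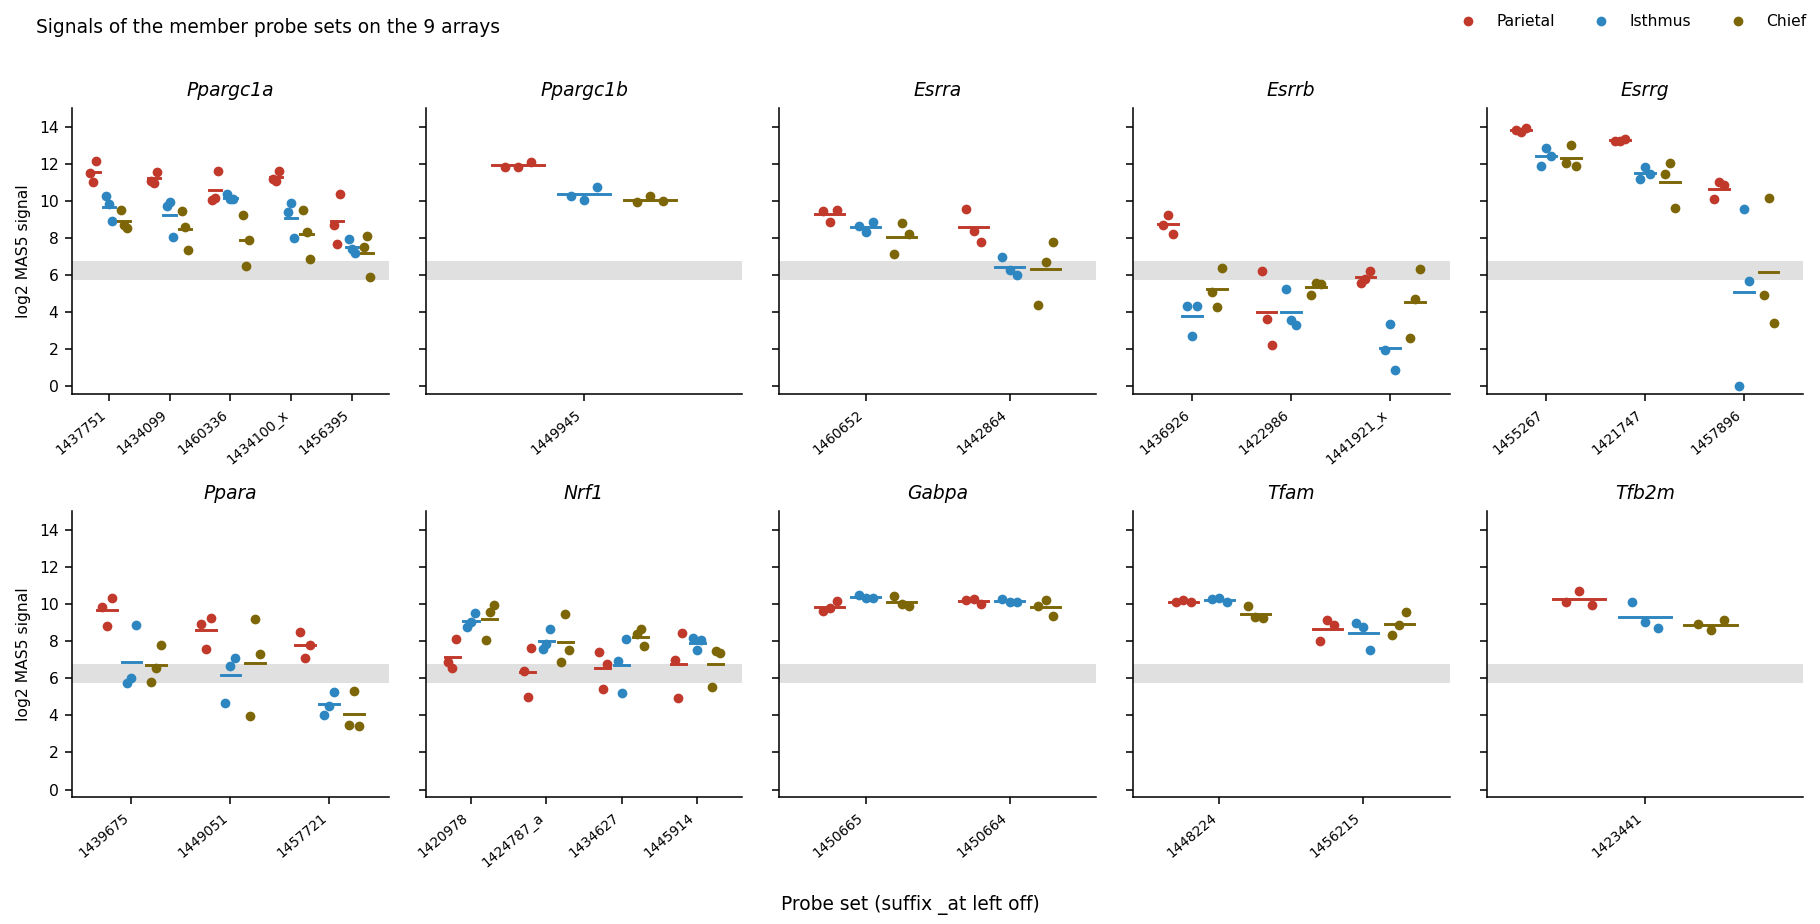
Log2 signal of each of the 26 member probe sets on the 9 arrays (points; bars are group means; red Parietal, blue Isthmus, olive Chief), with the range of the array medians, 5.80 to 6.70, in grey. The red points lie above all others for 8 probe sets, all from Ppargc1a, Ppargc1b, Esrrb, Esrrg and Ppara, of which all but Ppargc1b also have probe sets that overlap. The 8 include Esrrb 1436926_at and Ppara 1457721_at, tested only through the Parietal arrays. The share of all probe sets that lie so was not computed. Red points lie below most others for Nrf1 1420978_at, while the 3 groups of Gabpa 1450664_at overlap.

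Between the Mist1+ groups, limma called 0 of the 24 probe sets in Isthmus minus Chief, beside 1.19% of all probe sets, and 2 had an unadjusted p under 0.05 (15.3% of all). One was Ppargc1a 1460336_at (2.29 ± 0.613 log2, SE; limma adjusted p = 0.0945) and the other Tfam 1448224_at (0.75 ± 0.307; limma adjusted p = 0.264). The groups did not overlap for 3 probe sets, all higher in Isthmus, where 8.58% of all probe sets were higher in that way. The members' differences in this comparison had a median of 0.32 log2, and that over all probe sets was -0.033.

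**Figure D2:**
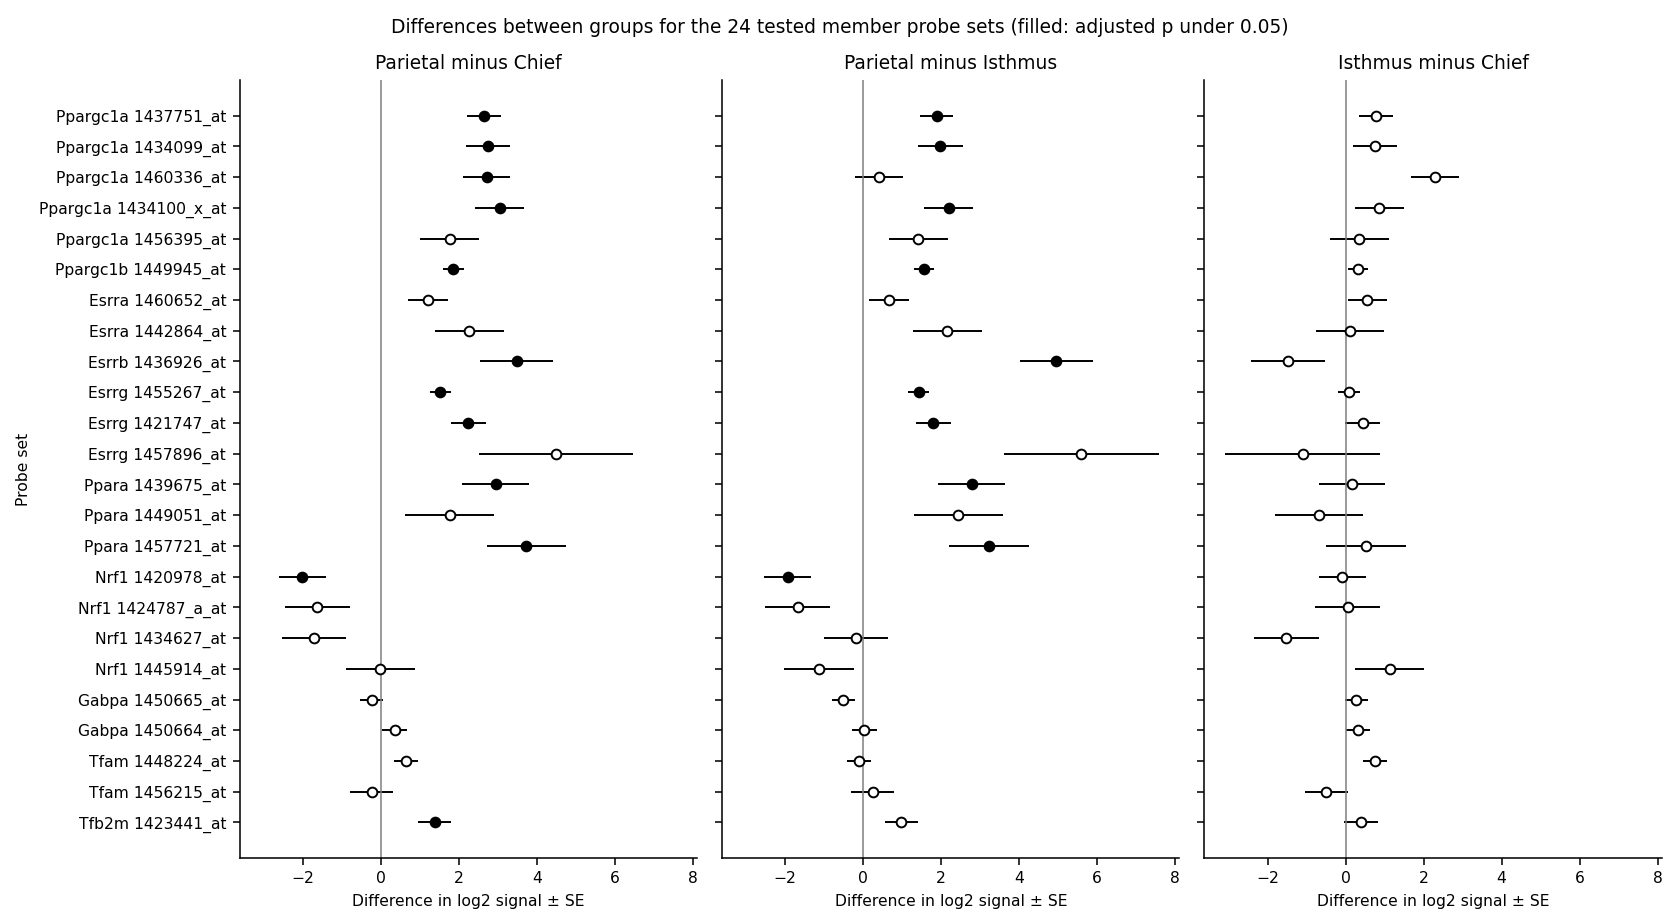
Difference in mean log2 signal with its standard error (bars) for the 24 tested probe sets in 3 comparisons of 3 arrays each; filled points have an adjusted p under 0.05 in limma. The left panel holds 12 filled points, the middle panel 10 and the right panel 0.

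Ppargc1a encodes PGC-1 alpha, the coactivator that cold, fasting and exercise induce in fat, liver and muscle. Its brightest probe set, 1437751_at, had 11.51, 11.01 and 12.13 log2 on the Parietal arrays, 10.27, 9.84 and 8.91 on the Isthmus arrays and 9.53, 8.67 and 8.51 on the Chief arrays. Every Parietal array lay above every other array, and the Isthmus and Chief arrays overlapped. The gene was thus 6.26-fold higher in Parietal than in Chief by this probe set (2.65 ± 0.434 log2, SE; limma adjusted p = 0.00105) and 3.67-fold higher than in Isthmus (1.88 ± 0.434; limma adjusted p = 0.00812). It kept both calls under each of the 20 alternatives run, with adjusted p-values of up to 0.0169 against Chief and up to 0.0498 against Isthmus.

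Probe set 1434099_at of Ppargc1a had 10.98 to 11.57 log2 on Parietal, 8.06 to 9.91 on Isthmus and 7.36 to 9.46 on Chief arrays, and 1434100_x_at, which was designed on the same source sequence and correlated with it at r = 1.0 over the 9 arrays, followed it. Both were higher in Parietal than in Chief, by 6.70-fold and 8.30-fold, and higher than in Isthmus, by 3.94-fold and 4.57-fold. The calls against Isthmus ended when Isthmus replicate 3 or any 1 of the Parietal arrays was left out and when limma was run without its intensity trend, where adjusted p reached 0.103 and 0.102. Probe set 1460336_at gave another order. It had 10.02, 10.15 and 11.59 log2 on Parietal, 10.35, 10.08 and 10.09 on Isthmus and 9.26, 6.49 and 7.89 on Chief arrays. Parietal and Isthmus overlapped there (0.41 log2; limma adjusted p = 0.696), and both lay above Chief, Parietal by at least 6.50-fold (limma adjusted p = 0.00804). A fold is written as "at least" where the lower group had an array under its own median signal, which then stands in for background. The fifth probe set, 1456395_at, had 8.72, 7.69 and 10.37 log2 on Parietal arrays and passed neither test (limma adjusted p = 0.131 against Chief and 0.22 against Isthmus).

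The promoter of Ppargc1a is shown because the gene's signal differed between the groups and because induction in other tissues runs through a cAMP response element near its start. In each promoter printed here, from 250 bases before to 50 bases past the transcription start that RefSeq annotates on GRCm38.p6, 5 short motifs were searched on both strands. They were AAGGTCA for ERR, GCATGCGC for NRF1, CCGGAAG for GABP, TGACGTCA for the full cAMP response element and CTA and TAG with any 4 bases between them for MEF2, a factor that acts on Ppargc1a in muscle. They occur in 4.72%, 2.71%, 8.86%, 1.79% and 3.69% of 32851 mouse promoters of that length. Capitals mark a match, and the Ppargc1a window at chr5:51567676-51567975, minus strand, holds none of the 5, which says only that these letters are not in it.
Ppargc1a: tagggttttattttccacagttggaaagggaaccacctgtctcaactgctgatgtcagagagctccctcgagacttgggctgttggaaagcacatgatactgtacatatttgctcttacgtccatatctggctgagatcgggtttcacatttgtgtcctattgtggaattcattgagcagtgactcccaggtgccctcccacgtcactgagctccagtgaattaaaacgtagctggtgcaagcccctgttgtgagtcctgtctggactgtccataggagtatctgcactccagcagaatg

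Ppargc1b encodes PGC-1 beta, the related coactivator that maintains basal respiratory capacity. Its single probe set, 1449945_at, had 11.82, 11.82 and 12.09 log2 on Parietal arrays, 10.26, 10.06 and 10.76 on Isthmus arrays and 9.92, 10.24 and 9.99 on Chief arrays. The Parietal arrays lay close together and above all others, with no overlap. Ppargc1b was 3.63-fold higher in Parietal than in Chief (1.86 ± 0.260 log2, SE; limma adjusted p = 0.00035) and 2.93-fold higher than in Isthmus (1.55 ± 0.260; limma adjusted p = 0.00103). Both calls held under all 20 alternatives, and without Parietal replicate 1 and Chief replicate 3 the differences were 1.88 and 1.59 log2.

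The 3 ERR genes encode orphan nuclear receptors that bind the same DNA element and depend on PGC-1 coactivators. Esrrg, the member for which roles in mouse heart, kidney and stomach are known, was measured by 3 probe sets. Probe set 1455267_at had 13.81, 13.72 and 13.93 log2 on Parietal arrays, 11.90, 12.86 and 12.43 on Isthmus arrays and 12.04, 13 and 11.87 on Chief arrays. The Parietal values were tight and on top, and the Mist1+ groups overlapped each other. The gene was 2.86-fold higher in Parietal than in Chief (1.52 ± 0.273 log2, SE; limma adjusted p = 0.00195) and 2.68-fold higher than in Isthmus (1.42 ± 0.273; limma adjusted p = 0.00254). Probe set 1421747_at averaged 13.27 ± 0.061 log2 in Parietal, 11.47 ± 0.337 in Isthmus and 11.03 ± 1.261 in Chief (SD, n = 3 each), which was 4.72-fold above Chief (limma adjusted p = 0.00354) and 3.47-fold above Isthmus (limma adjusted p = 0.0118). The call against Isthmus ended without the intensity trend (limma adjusted p = 0.0769).

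The third probe set of Esrrg, 1457896_at, had 10.09, 11.02 and 10.87 log2 on Parietal arrays, 0, 9.54 and 5.67 on Isthmus arrays and 4.95, 10.14 and 3.42 on Chief arrays. Values within the Mist1+ groups ran from the floor to the level of the Parietal arrays. The differences of 4.49 ± 1.985 log2 from Chief and 5.59 ± 1.985 from Isthmus did not pass the test (SE; limma adjusted p = 0.141 and 0.0645). They passed in 4 of 18 alternatives against Chief, among them without Chief replicate 2 or Isthmus replicate 1, and in 6 of 18 against Isthmus, among them without Chief replicate 2 or Isthmus replicate 2 and with the replicate number as a block (limma adjusted p = 0.0191). Because this probe set reached the filter only with its Parietal arrays, those passes lend no support. Over the 9 arrays the 3 Esrrg probe sets correlated at r = 0.79 to 0.93, as a description with the groups mixed. RefSeq lists 4 starts of Esrrg, and the window of the first, at chr1:187608756-187609055 on the plus strand, is shown because it holds the one MEF2 match among the 14 member promoters, 22 bases before the start.
Esrrg: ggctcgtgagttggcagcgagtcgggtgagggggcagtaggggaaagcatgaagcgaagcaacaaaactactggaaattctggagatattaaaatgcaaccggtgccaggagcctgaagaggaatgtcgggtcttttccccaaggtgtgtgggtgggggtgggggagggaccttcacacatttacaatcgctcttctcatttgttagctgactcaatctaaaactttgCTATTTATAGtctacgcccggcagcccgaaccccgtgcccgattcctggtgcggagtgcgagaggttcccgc

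Esrrb, the ERR gene best known from mouse embryonic stem cells, was measured by 3 probe sets of which 1 was tested. Probe set 1436926_at had 8.70, 9.25 and 8.23 log2 on Parietal arrays, 4.31, 2.69 and 4.33 on Isthmus arrays and 5.09, 4.28 and 6.38 on Chief arrays. The 6 Mist1+ arrays were all below their array medians, and the groups did not overlap. The Parietal signal was at least 5.95 times that of Isthmus and at least 4.58 times that of Chief. Because this probe set was tested only through its Parietal arrays, its adjusted p-values in limma, 0.00243 and 0.0214, lend no support, and its levels are a description. The other 2 probe sets were not tested. Of these, 1422986_at had 6.23, 3.64 and 2.21 log2 on Parietal arrays and 3.28 to 5.57 on the other 6, and 1441921_x_at had 5.56 to 6.23 on Parietal, 0.87 to 3.35 on Isthmus and 2.60 to 6.32 on Chief arrays. They gave Esrrb no level clear of the array medians.

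Esrra, the most widely expressed ERR gene, gave values that pointed the same way without passing the test. Probe set 1460652_at had 9.45, 8.86 and 9.48 log2 on Parietal arrays, 8.62, 8.33 and 8.87 on Isthmus arrays and 7.13, 8.82 and 8.20 on Chief arrays. Parietal and Chief did not overlap, at a difference of 1.21 ± 0.507 log2 (SE; limma adjusted p = 0.12), and Parietal and Isthmus did, narrowly (0.66 log2; limma adjusted p = 0.409). Probe set 1442864_at had 9.58, 8.39 and 7.77 on Parietal, 6.95, 6.29 and 6.02 on Isthmus and 4.41, 6.71 and 7.80 on Chief arrays, with differences of 2.27 and 2.16 log2 from Chief and Isthmus (limma adjusted p = 0.0917 and 0.103). It passed against Chief in 2 of 19 alternatives and against Isthmus in 3 of 19.

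Ppara encodes PPAR alpha, the fatty acid sensor that switches on fatty acid oxidation in liver and other oxidative tissues. Probe set 1439675_at had 9.81, 8.81 and 10.34 log2 on Parietal arrays, 5.75, 5.99 and 8.88 on Isthmus arrays and 5.80, 6.55 and 7.78 on Chief arrays. The Parietal arrays lay above the Chief arrays, and Isthmus replicate 3 reached into their range. Ppara was at least 6.73-fold higher in Parietal than in Chief (limma adjusted p = 0.0292) and at least 6.26-fold higher than in Isthmus (limma adjusted p = 0.0348) by this probe set. Probe set 1457721_at, with 7.10 to 8.50 log2 on Parietal, 4.01 to 5.26 on Isthmus and 3.42 to 5.30 on Chief arrays, was at least 2.41-fold above Chief (limma adjusted p = 0.0222) and at least 3.13-fold above Isthmus (limma adjusted p = 0.0402), and since it too was tested only through its Parietal arrays these values are a description. The 4 calls were not stable, holding in 14 of 20 and 13 of 18 alternatives against Chief and in 13 of 20 and 10 of 18 against Isthmus, and all 4 ended without Parietal replicate 1, without Parietal replicate 3, and when Parietal replicate 1 and Chief replicate 3 were both left out (with both left out, limma adjusted p = 0.0747, 0.181, 0.0961 and 0.146). Against Chief, leaving out Chief replicate 1 or 2 also ended the call of 1439675_at, and Chief replicate 1 or 3 that of 1457721_at. Against Isthmus, leaving out Isthmus replicate 1 or 2 ended both calls, and Isthmus replicate 3 or Parietal replicate 2 that of 1457721_at, as did the replicate number as a block (limma adjusted p = 0.0644). Probe set 1449051_at had 8.92, 7.59 and 9.24 log2 on Parietal arrays and 9.19 on Chief replicate 2, and did not pass (limma adjusted p = 0.325 against Chief and 0.155 against Isthmus).

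The Ppara promoter, at chr15:85735526-85735825 on the plus strand, is shown as a gene higher in Parietal whose window holds the NRF1 letters, in 2 overlapping matches 31 and 29 bases before the start. Esrra has the same letters 34 bases before its start. In all, 3 of the 14 promoters of 9 member genes hold the NRF1 motif and 0 hold the ERR motif.
Ppara: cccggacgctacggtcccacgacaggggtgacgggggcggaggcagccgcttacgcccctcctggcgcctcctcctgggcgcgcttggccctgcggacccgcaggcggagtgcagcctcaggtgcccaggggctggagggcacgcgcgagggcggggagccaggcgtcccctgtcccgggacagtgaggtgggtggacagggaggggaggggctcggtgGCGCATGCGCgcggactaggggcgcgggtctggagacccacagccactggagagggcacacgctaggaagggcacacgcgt

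Nrf1, which encodes nuclear respiratory factor 1, a DNA-binding activator of respiratory chain genes and of Tfam, was the one gene with a probe set lower in parietal cells. Probe set 1420978_at had 6.86, 6.52 and 8.09 log2 on Parietal arrays, 8.78, 9.0 and 9.49 on Isthmus arrays and 8.04, 9.54 and 9.94 on Chief arrays. The Parietal arrays lay below the Isthmus arrays, and Parietal replicate 3 just exceeded Chief replicate 1. The signal was 3.82-fold lower in Parietal than in Isthmus (-1.93 ± 0.602 log2, SE; limma adjusted p = 0.0372) and 4.05-fold lower than in Chief (-2.02 ± 0.602; limma adjusted p = 0.0336). Each call held in 10 of 20 alternatives, and both ended with quantile normalization, with each array centred on its median, without the intensity trend, with no filter, and without Parietal replicate 1 or 2. The call against Chief also ended without Chief replicate 2 or 3, and that against Isthmus without any 1 of the Isthmus arrays. The difference itself stayed between -2.58 and -1.48 log2 from Chief and between -2.40 and -1.53 from Isthmus.

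The other 3 probe sets of Nrf1 did not pass in either comparison. Probe set 1424787_a_at had 5.0 to 7.64 log2 on Parietal, 7.55 to 8.66 on Isthmus and 6.89 to 9.45 on Chief arrays, a difference of -1.63 from Chief and -1.68 from Isthmus (limma adjusted p = 0.204 and 0.182). Probe set 1434627_at had 7.40, 5.43 and 6.77 log2 on Parietal, 6.90, 5.18 and 8.10 on Isthmus and 8.36, 8.65 and 7.72 on Chief arrays. Parietal and Chief did not overlap there, at -1.71 log2 (limma adjusted p = 0.18). Probe set 1445914_at differed by -0.01 log2 from Chief (limma adjusted p = 0.995), a sign that turned under several settings. The 4 probe sets of Nrf1 correlated with each other at r = 0.16 to 0.85 over the 9 arrays, so they did not give 1 pattern.

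Gabpa encodes the DNA-binding subunit of GABP, also called nuclear respiratory factor 2, which acts on genes of cytochrome oxidase and on Tfam and Tfb2m. Its probe set 1450665_at had 9.64, 9.80 and 10.13 log2 on Parietal arrays, 10.48, 10.32 and 10.31 on Isthmus arrays and 10.40, 9.99 and 9.91 on Chief arrays. Parietal lay below Isthmus with no overlap, and the difference of -0.51 log2 did not pass (limma adjusted p = 0.256). Against Chief it was -0.24 log2 (limma adjusted p = 0.628). Probe set 1450664_at stayed within 9.37 to 10.29 log2 on all 9 arrays, with differences of 0.35 log2 from Chief and 0.03 from Isthmus (limma adjusted p = 0.486 and 0.961). Both came from the same source sequence, yet their values correlated at r = 0.02.

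Tfam encodes the protein that packages mitochondrial DNA and bends it at promoters. Probe set 1448224_at had 10.08, 10.22 and 10.08 log2 on Parietal arrays, 10.27, 10.30 and 10.12 on Isthmus arrays and 9.87, 9.31 and 9.25 on Chief arrays. The Chief arrays were the lowest, overlapping neither other group, at a difference of 0.65 ± 0.307 log2 for Parietal (SE; limma adjusted p = 0.169). Parietal and Isthmus differed by -0.10 log2 (limma adjusted p = 0.856). Its other probe set, 1456215_at, had 8.0, 9.12 and 8.88 log2 on Parietal arrays, 8.95, 8.78 and 7.54 on Isthmus arrays and 8.32, 8.86 and 9.55 on Chief arrays, a different order, and the 2 correlated at r = -0.37.

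Tfb2m encodes a factor that opens mitochondrial promoters for the mitochondrial RNA polymerase. Probe set 1423441_at had 10.12, 10.69 and 9.95 log2 on Parietal arrays, 10.09, 9.03 and 8.69 on Isthmus arrays and 8.92, 8.57 and 9.12 on Chief arrays. Parietal lay above Chief throughout and overlapped Isthmus through Isthmus replicate 1. Tfb2m was 2.61-fold higher in Parietal than in Chief (1.38 ± 0.428 log2, SE; limma adjusted p = 0.0396), a call kept in 10 of 20 alternatives and lost without any 1 of the Parietal or Chief arrays, with an adjusted p of up to 0.151. The 0.98 log2 difference from Isthmus did not pass (limma adjusted p = 0.128), except without Isthmus replicate 1 (1.39 log2; limma adjusted p = 0.0456).

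The promoters of Tfam and Tfb2m are shown because these are the 2 members known as targets of both NRF1 and GABP. The Tfam window at chr10:71237995-71238294, minus strand, holds the GABP motif 47 bases before the start, and the Tfb2m window at chr1:179546227-179546526, minus strand, holds the NRF1 motif 13 bases past it. Gabpa holds the GABP motif in its own window as well, 93 bases before the start, the second of 2 member promoters with it.
Tfam: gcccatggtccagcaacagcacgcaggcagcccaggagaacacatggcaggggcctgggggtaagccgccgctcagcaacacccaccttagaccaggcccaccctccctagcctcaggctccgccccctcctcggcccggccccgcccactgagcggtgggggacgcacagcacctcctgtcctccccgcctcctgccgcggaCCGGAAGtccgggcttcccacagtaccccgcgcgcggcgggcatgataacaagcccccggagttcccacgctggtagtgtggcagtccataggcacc
Tfb2m: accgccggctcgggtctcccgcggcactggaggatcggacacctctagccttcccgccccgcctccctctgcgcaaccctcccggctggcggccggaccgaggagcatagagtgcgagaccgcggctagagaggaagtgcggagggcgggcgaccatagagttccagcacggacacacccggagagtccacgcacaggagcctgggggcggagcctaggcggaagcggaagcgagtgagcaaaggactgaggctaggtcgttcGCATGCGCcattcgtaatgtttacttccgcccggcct

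The order of the groups was thus Parietal on top for the brightest probe set of Ppargc1a, Ppargc1b, Esrrg and Ppara, with both steps down from Parietal past the threshold and the step between Isthmus and Chief not. For Nrf1 1420978_at the order was turned, Isthmus and Chief again not differing by the test. For Tfb2m only Parietal and Chief differed by it, and for Esrra, Gabpa and Tfam no pair of groups did.

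Genes were also ranked by how closely they followed the brightest probe set of each member over the 9 arrays, as a description in which differences between the groups carry most of the correlation. Closest to Ppargc1b was a probe set of Ptprd, a receptor tyrosine phosphatase (r = 0.993), followed by Gpam, an enzyme of triglyceride synthesis (0.989), and Atp5pb, a subunit of ATP synthase (0.987). Esrrg was closest to Slc25a4, the ADP/ATP carrier of the inner mitochondrial membrane (0.988), with 13.17, 11.44 and 11.36 log2 in Parietal, Isthmus and Chief. Ppargc1a was closest to Zdhhc2, a palmitoyltransferase (0.97), Akap2, an anchor of protein kinase A (0.964), and Arrdc3, an arrestin-like protein (0.959). Esrrb was closest to Sfxn2, a sideroflexin of the mitochondrial membrane (0.989), Nrf1 to Trim59 (0.982), Ppara to Siva1 (0.974), Gabpa to Laptm4b (0.974), Esrra to Spring1 (0.963), Tfb2m to Slc39a3 (0.963) and Tfam to Rnf114 (0.960). Mrpl3, a protein of the mitochondrial ribosome, was among the 3 closest to Tfam (0.953).

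The pathway around the members was described with 8 lists holding 143 genes, of which 122 were tested, each by its brightest probe set. Against Chief 35 were higher and 3 lower, and against Isthmus 36 were higher and 8 lower, with 2 higher and 0 lower in Isthmus minus Chief. Those called higher were 28.7% against Chief and 29.5% against Isthmus, beside 7.59% and 9.03% of all probe sets tested. Those called lower were 2.46% and 6.56%, beside 10.6% and 11.2%. All probe sets include dim and repeated ones, while a list gene stands by its brightest. With 1 probe set per gene, of the 11053 genes with a tested probe set, 1175 were called higher against Chief and 1339 against Isthmus. Those called lower were 1500 and 1696. The lists overlap, and their counts are descriptions that carry no test of the list. The shares of genes called higher in Parietal were highest in the 3 lists of target genes, in both comparisons.

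Of 15 tested partners, coactivators and repressors of PGC-1, 2 were higher in Parietal than in Chief and 0 lower, and 2 were higher and 2 lower than in Isthmus, with medians of 0.19 and -0.20 log2. The share called higher, 13.3% in both, stands beside 7.59% and 9.03% of all probe sets. The share lower than in Isthmus, also 13.3%, stands beside 11.2%. Perm1, a muscle gene that PGC-1 and ERR induce, had 8.61, 8.40 and 7.65 log2 on Parietal arrays, 2.35, 4.48 and 4.87 on Isthmus arrays and 1.81, 5.31 and 4.92 on Chief arrays. It was above the array median on the Parietal arrays alone, through which it entered the test, so its signal there, at least 3.23 times that of Chief and at least 4.19 times that of Isthmus, is a description. Sirt1, a deacetylase that activates PGC-1 alpha, averaged 8.71 ± 0.39 log2 in Parietal, 9.04 ± 0.297 in Isthmus and 6.73 ± 0.445 in Chief (SD, n = 3 each), and was called against Chief only (limma adjusted p = 0.0152), as it was in Isthmus minus Chief. Pprc1, the third gene of the PGC-1 family, was 3.23-fold lower in Parietal than in Isthmus (limma adjusted p = 0.0252), while the -0.56 log2 from Chief did not pass (0.47). Without Parietal replicate 1 and Chief replicate 3, 0 genes of this list were called against Chief and 1 against Isthmus, and leaving out Parietal replicate 3 alone gave 0 in both.

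Of 21 kinases and factors upstream of PGC-1, 2 were higher in Parietal in each comparison and 0 lower, with medians of 0.17 log2 against Chief and 0.33 against Isthmus. That share, 9.52%, is near the 7.59% and 9.03% of all probe sets, and leaving out any 1 of the Parietal arrays, or the intensity trend, took both counts to 0. Prkab2, a regulatory subunit of the AMP-activated kinase, was 2.18-fold above Chief and 2.29-fold above Isthmus (limma adjusted p = 0.036 and 0.0253), and Prkaa2, a catalytic subunit, was 4.72-fold above Isthmus (limma adjusted p = 0.0313) with 2.02 log2 above Chief not passing (0.0531). Of 9 other nuclear receptors that PGC-1 coactivates, 0 were higher and 2 lower in Parietal than in Chief, and 1 was higher and 3 lower than in Isthmus, with medians of -0.20 and -0.86 log2. The shares called lower, 22.2% and 33.3%, stand beside 10.6% and 11.2% of all probe sets. The 11.1% higher than in Isthmus stands beside 9.03%. Without Parietal replicate 1 and Chief replicate 3, 1 was lower than in Chief and 3 than in Isthmus. Hnf4a, a regulator of liver and gut epithelium, averaged 9.93 ± 0.478 log2 in Parietal, 12.55 ± 0.153 in Isthmus and 11.95 ± 0.335 in Chief (SD, n = 3 each), 6.13-fold below Isthmus and 4.05-fold below Chief (limma adjusted p = 2.93e-05 and 0.000197). Rxra, the partner receptor of PPAR alpha, was 2.80-fold below Isthmus and 2.34-fold below Chief (limma adjusted p = 0.0173 and 0.046). Thus Ppara and Rxra, whose proteins act as a pair, had differences of opposite sign.

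Of 22 genes of mitochondrial DNA replication, transcription and packaging, 3 were higher in Parietal than in Chief and 2 than in Isthmus, with 0 lower and medians of 0.02 and 0.08 log2. The shares called higher, 13.6% and 9.09%, stand beside 7.59% and 9.03% of all probe sets. Among probe sets above the array median on all 9 arrays the shares were 10.4% and 11.6%. Without Parietal replicate 1 there was 1 higher and 1 lower in each comparison, and the same counts were found without that array and Chief replicate 3. Rrm2b, a ribonucleotide reductase subunit that supplies nucleotides for mitochondrial DNA, had 11.25, 10.79 and 10.56 log2 on Parietal arrays, 8.03, 8.89 and 8.12 on Isthmus arrays and 9.31, 9.60 and 8.81 on Chief arrays. It was 3.09-fold above Chief and 5.74-fold above Isthmus (limma adjusted p = 0.012 and 0.000659). Lonp1, the matrix protease that degrades TFAM, was 2.54-fold above Chief and 2.08-fold above Isthmus (limma adjusted p = 0.00325 and 0.0124). Tefm, an elongation factor of mitochondrial transcription, was at least 3.38-fold above Chief (limma adjusted p = 0.0441). Of 8 partners of GABP and other nuclear factors, with medians of -0.18 and -0.45 log2, Nfe2l1, a stress-responsive activator, was higher in Parietal in both comparisons (1.25 and 0.85 log2; limma adjusted p = 0.00521 and 0.0364), and Myc and Sp1 were lower than in Isthmus (-1.56 and -1.10 log2; limma adjusted p = 0.0101 and 0.0462). The share of that list called higher, 12.5% in both comparisons, stands beside 7.59% and 9.03% of all probe sets. The 25% lower than in Isthmus stands beside 11.2%. Without Parietal replicate 1 and Chief replicate 3, 0 genes of that list were called against Chief, and 1 was lower than in Isthmus.

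**Figure D3:**
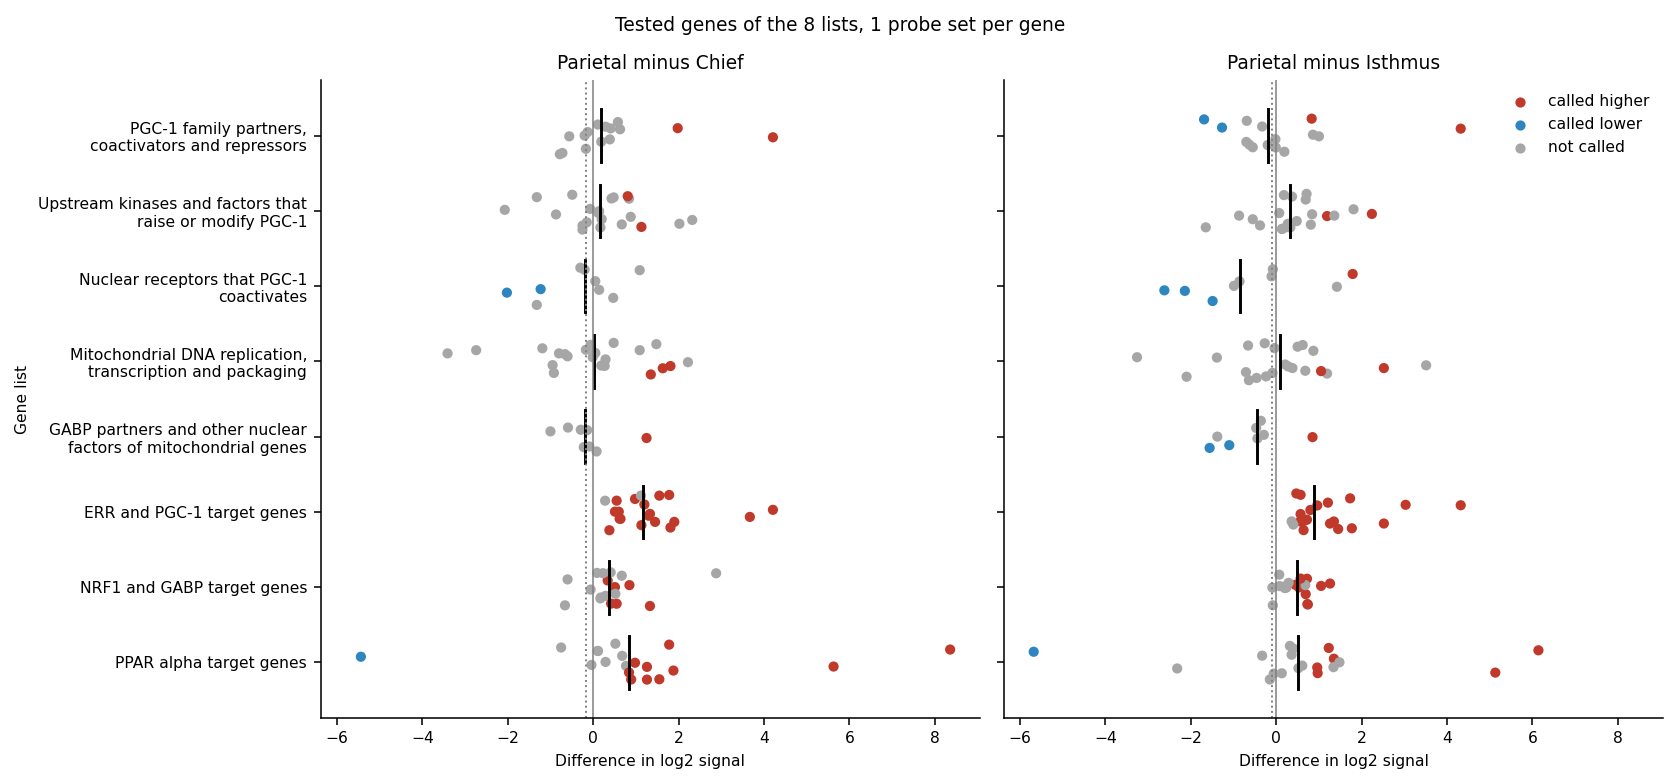
Difference in log2 signal for the tested genes of the 8 lists (points; red called higher, blue called lower, grey not called), with the list's median as a black bar and the median of all tested probe sets as a dotted line. The target genes of ERR and PGC-1 lie right of 0 in both panels, with medians of 1.16 and 0.88, while the mitochondrial DNA list is spread around 0.

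Of 20 tested target genes of ERR and PGC-1, 18 were higher in Parietal than in Chief and 18 than in Isthmus, and 0 were lower, with medians of 1.16 and 0.88 log2. Perm1, described above, is among those counted as higher. Among probe sets with a mean of at least 11 log2, where most of these genes lie, 21.8% were called higher against Chief and 26% against Isthmus. Fabp3, a fatty acid binding protein of heart and muscle, had 14.35, 14.20 and 14.34 log2 on Parietal arrays, 10.62, 12.35 and 10.83 on Isthmus arrays and 10.75, 10.57 and 10.57 on Chief arrays. It was 12.7-fold above Chief and 8.17-fold above Isthmus (limma adjusted p = 1.76e-05 and 5.96e-05). Uqcrfs1, the Rieske protein of complex III, was 3.72-fold above Chief and 2.74-fold above Isthmus (limma adjusted p = 3.28e-05 and 0.000196), and Sdhb, the iron-sulfur subunit of complex II, was 2.52-fold and 2.39-fold above them (limma adjusted p = 0.000313 and 0.000402). Vegfa, an angiogenic factor, had 10.09, 10.38 and 10.52 log2 on Parietal, 7.01, 8.14 and 8.29 on Isthmus and 9.90, 9.24 and 8.50 on Chief arrays, and passed against Isthmus (5.72-fold; limma adjusted p = 0.00253) but not against Chief (1.12 log2; 0.132). The genes that missed the threshold, named after their values were seen, were Vegfa and Sdhd against Chief and Pdk4 and Slc25a20 against Isthmus. Over the alternatives the count against Chief lay between 11 and 19 and that against Isthmus between 10 and 18, the lowest without the intensity trend, and without Parietal replicate 1 and Chief replicate 3 they were 15 and 17.

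**Figure D4:**
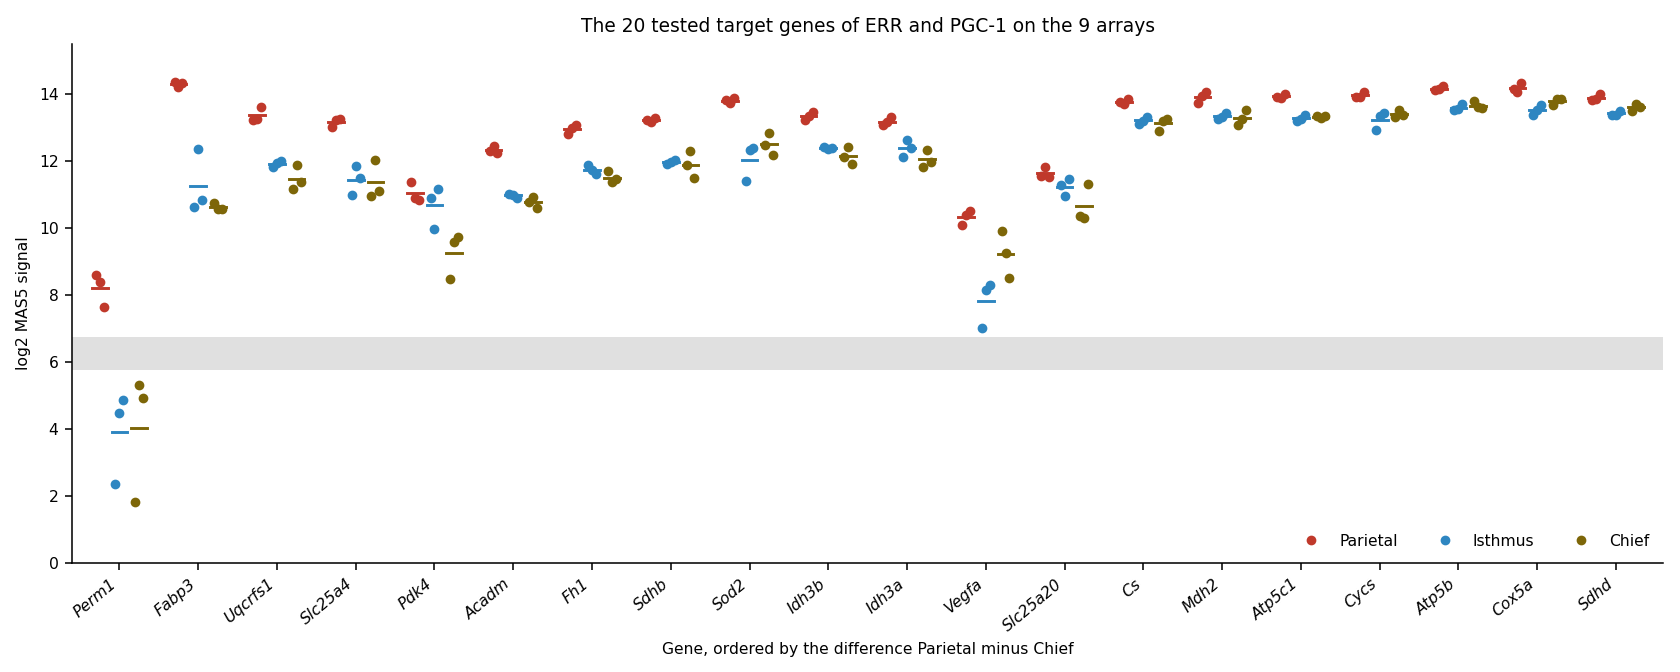
Log2 signal of the 20 tested target genes of ERR and PGC-1 on the 9 arrays (points; bars are group means; red Parietal, blue Isthmus, olive Chief; grey, range of the array medians), ordered by the difference Parietal minus Chief. Perm1 at 4.21 and Fabp3 at 3.67 log2 lead on the left, and on the right the genes above 13 log2 differ by less, down to 0.28 for Sdhd.

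Of 18 target genes of NRF1 and GABP, 6 were higher in Parietal than in Chief and 9 than in Isthmus, and 0 were lower, with medians of 0.38 and 0.49 log2. The shares called higher, 33.3% and 50%, stand beside 7.59% and 9.03% of all probe sets. Among probe sets with a mean of at least 11 log2, where most of these genes lie, the shares were 21.8% and 26%. Cox4i1, a subunit of cytochrome oxidase, had 13.97, 14.03 and 14.17 log2 on Parietal arrays, 12.89, 13.09 and 13.05 on Isthmus arrays and 13.22, 13.25 and 13.14 on Chief arrays, 1.81-fold above Chief and 2.07-fold above Isthmus (limma adjusted p = 0.000112 and 2.6e-05). Cycs, cytochrome c, was 1.46-fold above Chief (limma adjusted p = 0.011). Without the intensity trend 2 genes of this list passed in each comparison, without Parietal replicate 3 there were 3 against Chief, and without Parietal replicate 1 and Chief replicate 3 there were 3 and 9. Cycs and Sdhb are in the ERR list too, so the 2 counts share genes.

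Of 19 target genes of PPAR alpha, 10 were higher and 1 lower in Parietal than in Chief, and 6 were higher and 1 lower than in Isthmus, with medians of 0.84 and 0.52 log2. The shares called higher, 52.6% and 31.6%, stand beside 7.59% and 9.03% of all probe sets. Among probe sets with a mean of at least 11 log2 the shares were 21.8% and 26%. Fabp1, the liver fatty acid binding protein, had 12.10, 12.55 and 11.34 log2 on Parietal arrays, 3.44, 6.20 and 7.93 on Isthmus arrays and 4.8, 2.90 and 3.22 on Chief arrays. It was at least 44.2-fold above Chief and at least 39.6-fold above Isthmus. Outside Parietal only Isthmus replicate 3 exceeded its array median, so Fabp1 was tested only through its Parietal arrays. Its adjusted p-values in limma, 0.000112 and 0.000859, therefore lend no support. Its levels, and the counts of this list that hold it, are descriptions. Cd36, a fatty acid transporter, had 13.15, 12.89 and 13.14 log2 on Parietal arrays, 6.80, 9.26 and 7.73 on Isthmus arrays and 8.52, 3.93 and 9.83 on Chief arrays, at least 27.3-fold above Chief (limma adjusted p = 0.00352). Acadl, long-chain acyl-CoA dehydrogenase, was 3.69-fold above Chief and 1.95-fold above Isthmus (limma adjusted p = 5.69e-05 and 0.00478). Acot1, a cytosolic acyl-CoA thioesterase, went the other way, with 0.31, 4.88 and 1.52 log2 on Parietal arrays, 7.66, 7.63 and 8.47 on Isthmus arrays and 7.42, 6.28 and 9.32 on Chief arrays, at least 3.57-fold below Chief and at least 4.24-fold below Isthmus. It was above the array median on no Parietal array and entered the test through Isthmus and Chief arrays alone. Its adjusted p-values in limma, 0.00747 and 0.00508, therefore lend no support, and its levels are a description. Without Parietal replicate 1 and Chief replicate 3, 10 genes of this list were higher than in Chief, with 0 lower, and 6 were higher and 1 lower than in Isthmus.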

How the data were processed

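The authors deposited 1 log2 signal for each probe set on each array. They came from MAS5, per the submitters' processing notes; its version, and how values reached the log scale and a floor of 0, are not stated in the sources used here. Taken to base 2, mean signals with 2% trimmed from both ends were 496.2 to 497.2 on every array, and 1.99% to 3.91% of an array's values were exactly 0. Groups and replicate numbers come from the sample titles. Names of probe sets are those of the platform annotation (34945 of 45037 name 1 gene, 932 several and 9160 none), with symbols looked up in a RefSeq table of GRCm38.p6 that matched 34741 of them and changed 0.

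Differences were tested with limma 3.58.1 in R 4.3.3 (lmFit, then eBayes with an intensity trend) on the values as deposited, in one fit of all 9 arrays with a mean per group and 6 residual degrees of freedom. The 25662 probe sets above their array median on at least 3 arrays were tested, two-sided, with Benjamini-Hochberg adjustment over all of them in each comparison; calls needed an adjusted p under 0.05 and no set fold. In lists a gene stands by its brightest probe set. The procedure was tested on simulated data with the 25662 probe sets and 200 changed ones in Parietal minus Chief, where it recovered 9% of changes of 1 log2 and 18% of changes of 2 log2 with 0 false calls. In the real comparison 4674 were called. The Benjamini-Hochberg cut-off depends on the share of changed probe sets, so these recovery rates do not carry over to the real data. The number of arrays limits the precision.

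The text names all member probe sets, up to 3 called genes per list, comparison and direction with the largest difference, the genes most like each member, and markers; others are named with a remark. The members and lists were chosen with earlier results of these data known, and the motifs after the promoter sequences had been seen. Promoters come from a RefSeq table of GRCm38.p6, and the build behind the platform annotation is not stated there. Alternatives covered offsets of 16 and 64 added to the signal, the filter, quantile normalization, centring, the 2 compared groups alone, no intensity trend, 1 probe set per gene, a replicate block, single arrays and the 2 arrays that stood apart. For the lists they were added after seeing the data.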

Additional observations from a re-analysis of the deposited data

How the results depend on the processing

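Of 12 member probe sets called against Chief and 10 against Isthmus, the 7 calls against Chief of Ppargc1a (4 probe sets), Ppargc1b and Esrrg (2), and the 3 against Isthmus of Ppargc1a 1437751_at, Ppargc1b and Esrrg 1455267_at, held under every alternative run for them. So did the call of Esrrb 1436926_at against Isthmus (19 of 19), which was tested only through its Parietal arrays and is a description. Those of Ppara, Nrf1 and Tfb2m are the least stable, and depth or detection calls could not be used to weigh dim probe sets. Leaving out single arrays gave 7 to 13 calls against Chief, 5 to 12 against Isthmus and 0 between Isthmus and Chief. The lowest, 7 and 5, came without Parietal replicate 1. Other settings gave 7 (1 probe set per gene) and 7 (without Parietal 1 and Chief 3) against Chief, and 5 (no intensity trend) and 6 (1 probe set per gene) against Isthmus.

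Over all probe sets the calls against Chief numbered 4674, with 3063 without the trend, 2675 with 1 probe set per gene, 2642 without both arrays and 3269 to 4590 without single arrays. Against Isthmus they were 5200, with 3035 for 1 probe set per gene and 3757 to 5542 without single arrays. Isthmus minus Chief gave 305, with 517 (offset 64), 150 (no filter), 203 (quantile), 196 (centred), 145 (2 groups alone), 32 (no trend), 179 (1 probe set per gene), 41 (without both arrays) and 33 to 371 without single arrays. Fewer features or arrays enter some of these, and other causes were not tested.

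Quantile normalization moved the median of all differences by 0.21 log2 against Chief and 0.12 against Isthmus, and centring by 0.25 and 0.21; both ended the Nrf1 calls. Signs turned in differences never called. Against Chief, Nrf1 1445914_at became 0.04 and 0.09 (offsets 16 and 64), 0.50 (quantile), 0.24 (centred) and 0.19 (without both arrays), with -0.85 to 0.92 without single arrays. Gabpa 1450665_at became 0.00 (centred), and Tfam 1456215_at 0.00 (centred) and 0.41 (without both arrays), with -0.54 to 0.09 without single arrays. Against Isthmus, Nrf1 1434627_at became 0.08 (quantile) and 0.01 (centred), with -0.97 to 0.49 without single arrays, and Tfam 1448224_at 0.10 (centred). Without single arrays Gabpa 1450664_at ran from -0.03 to 0.11, Ppargc1a 1460336_at from -0.09 to 0.70 and Tfam 1456215_at from -0.20 to 0.58.

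With the replicate number as a replicate block, 11 member probe sets were called against Chief (Tfb2m lost), 10 against Isthmus (Ppara 1457721_at lost, Esrrg 1457896_at gained) and 0 between Isthmus and Chief. Deviations from the group means correlated at -0.013 to 0.04 for same-numbered arrays and -0.04 to 0.017 for others. These values show no clear link by number, and cannot tell whether same-numbered samples were collected as pairs.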
